A study of Caenorhabditis elegans with 15 samples.

Results

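The genes described here encode 7 short peptides of the nlp-29 group, which the epidermis of Caenorhabditis elegans makes as antimicrobial peptides: nlp-27, nlp-28, nlp-29, nlp-30, nlp-31, nlp-33 and nlp-34. They were found by gene name, and all 7 of 7 are among the 46906 genes of the deposited expression table. RNA was sequenced from whole wild-type N2 worms on day 12 of adulthood, after treatment that began at the L4 larval stage. One group received an extract of C. chinensis seeds at 30 µg/mL, a second an extract of E. ulmoides bark at the same 30 µg/mL, and the control only the solvent, 0.05% DMSO. Each of the 3 groups had 5 libraries, labelled as biological repeats, and each tube held about 3000 to 4000 worms. All groups, the control included, were kept at 22 °C on E. coli OP50 with carbenicillin and with 100 µM FUdR, a drug that stops the production of offspring. FPKM, the unit of the table, counts sequenced fragments relative to the length of the gene and the size of the library. The members are short, with 264 bp (nlp-34) to 714 bp (nlp-30) of annotated exons. What the size of the sequenced fragments does to levels compared between genes this short was not tested. Between 37963794 and 81833288 fragments stood behind a C. chinensis library, between 39567765 and 87238546 behind an E. ulmoides library, and between 37920765 and 82839505 behind a DMSO library, as recovered from the FPKM values.

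The nlp-29 group are small secreted peptides rich in glycine, tyrosine and tryptophan. The worm's epidermis switches them on when the fungus Drechmeria coniospora pierces the cuticle, after sterile wounding, and under high salt. In the response to fungus and wounds, the receptor DCAR-1 and the G protein GPA-12 act through phospholipase C and protein kinase C on a p38 MAP kinase cascade (TIR-1, NSY-1, SEK-1 and PMK-1), and the STAT-like factor STA-2 with its partner SNF-12 and the GATA factor ELT-3 act at the genes. NLP-29 itself is the peptide most used to report on this response, and in ageing or infected worms it also reaches neurons through the receptor NPR-12. Synthetic NLP-31 kills fungi in vitro.

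Of the 7 genes, 6 lie side by side on chromosome V in the genome build WBcel235, between 3978825 and 3989770, a span of 10946 bp. In the Ensembl annotation of that build, nlp-34 (WBGene00015046) occupies 3978825 to 3979134 on the minus strand and is the only member of the row read in that direction. It is followed on the plus strand by nlp-31 (WBGene00003769, 3980055 to 3980622), nlp-30 (WBGene00003768, 3981980 to 3982741) and nlp-29 (WBGene00003767, 3984425 to 3984847). The row ends with nlp-28 (WBGene00003766, 3987900 to 3988316) and nlp-27 (WBGene00003765, 3989378 to 3989770). The gaps between neighbours were 920 bp to 3052 bp, and 0 other annotated genes lie inside the span. The gene nlp-33 (WBGene00003771) stands apart on the same chromosome, at 11147346 to 11147737 on the plus strand, 7157575 bp beyond nlp-27. All 7 are annotated as protein-coding with 2 exons and 1 transcript, and their coding sequences hold 59 codons (nlp-34) to 75 codons (nlp-31). No annotated gene on either strand overlaps any of them. The peptides are related in sequence, and how fragments that fit several genes were counted is not given in the sources used here, so an exchange of fragments between members was not tested.

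**Figure D1:**
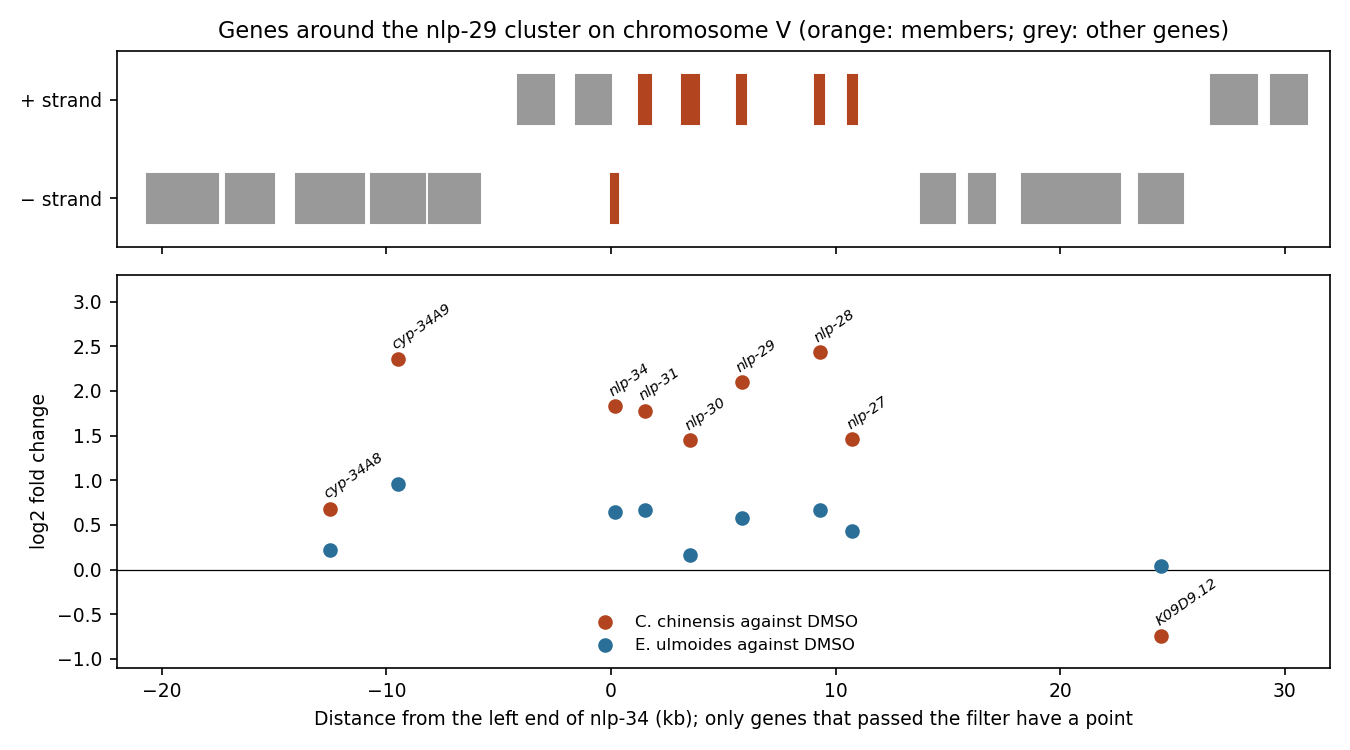
Map of protein-coding genes and pseudogenes around the 6 clustered members on chromosome V. The scale gives distance in kb from the left end of nlp-34, with plus-strand genes drawn above minus-strand genes. The lower panel gives log2 fold changes against DMSO with C. chinensis and with E. ulmoides, for genes expressed enough to be tested. Members are orange and other genes grey; the 6 members follow each other with 0 other genes between them, and nlp-34 alone is on the minus strand.

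C. chinensis raised every one of the 7 peptide genes, and E. ulmoides raised none by the same test. Summed over the 7 genes, the deposited level was 477.9, 559.2, 715, 422 and 626.5 FPKM in the 5 C. chinensis libraries, 249.8, 163.7, 180.8, 219.1 and 169.9 FPKM in the E. ulmoides libraries, and 107, 200.3, 154.7, 158.2 and 107.3 FPKM in the DMSO libraries. The lowest C. chinensis library thus stood above every E. ulmoides and every DMSO library, whereas the E. ulmoides and DMSO libraries overlapped. In whole worms, more RNA per epidermal cell and a larger share of epidermal RNA in the animal cannot be told apart.

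By FPKM, the most abundant of the peptide genes was nlp-27 in all 3 groups. It had 191, 199, 261, 166 and 209 FPKM with C. chinensis, 102, 69.8, 76.5, 91.8 and 73.7 FPKM with E. ulmoides, and 52.4, 89.8, 60.5, 75.6 and 52.1 FPKM with DMSO. All 5 C. chinensis values lay above all others, and the E. ulmoides values overlapped those of DMSO. Its neighbour at the other end of the cluster, nlp-34, came next with 84.1, 113, 165, 81.2 and 114.6 FPKM with C. chinensis, 55.0, 35.5, 38.8, 39.0 and 30.0 FPKM with E. ulmoides, and 20.3, 41.5, 27.9, 27.3 and 19.9 FPKM with DMSO. Here, too, the C. chinensis libraries did not overlap either of the other groups. The antifungal peptide gene nlp-31 had 77.4, 90.8, 121, 73.5 and 111 FPKM with C. chinensis, 44.1, 30.5, 32.6, 35.5 and 34.1 FPKM with E. ulmoides, and 17.3, 34.9, 28.4, 24.1 and 17.3 FPKM with DMSO. For nlp-31 a single DMSO library, replicate 2, reached into the E. ulmoides range, and the other DMSO libraries were below it.

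The next members in rank, nlp-28 and nlp-29, lay lower in control worms. For nlp-28 the levels were 65.9, 84.7, 87.4, 53.9 and 96.3 FPKM with C. chinensis, 24.1, 12.5, 14.7, 28.8 and 15.1 FPKM with E. ulmoides, and 6.72, 15.6, 18.3, 14.9 and 8.70 FPKM with DMSO. The infection reporter gene nlp-29 had 52.8, 59.8, 68.1, 40.9 and 84.8 FPKM with C. chinensis, 20.9, 13.7, 15.5, 21.3 and 14.3 FPKM with E. ulmoides, and 8.88, 15.4, 16.1, 14.4 and 7.39 FPKM with DMSO. In both genes the C. chinensis libraries were apart from all others, and the E. ulmoides libraries with the highest levels were replicates 1 and 4.

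The remaining members were weakly expressed. The distant gene nlp-33 had 4.83, 8.24, 9.97, 3.83 and 7.29 FPKM with C. chinensis, 2.30, 1.43, 1.92, 1.29 and 2.28 FPKM with E. ulmoides, and 0.431, 2.35, 2.68, 1.79 and 0.931 FPKM with DMSO. The clustered gene nlp-30 had 2.33, 3.25, 2.91, 2.79 and 3.51 FPKM with C. chinensis, 1.06, 0.283, 0.899, 1.31 and 0.408 FPKM with E. ulmoides, and 0.977, 0.812, 0.797, 0.0739 and 0.826 FPKM with DMSO. Both were higher in every C. chinensis library than in any other. Their depth was low: nlp-30 rested on 73 to 163 fragments per library with C. chinensis, 8 to 66 with E. ulmoides and 2 to 48 with DMSO, whereas nlp-27 rested on 2647 to 4303, 875 to 2832 and 762 to 2358 fragments in the same groups. The numbers for nlp-27 take the smallest gene length that gives whole fragments, 317 bp, beside 316 bp of annotated exons.

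**Figure D2:**
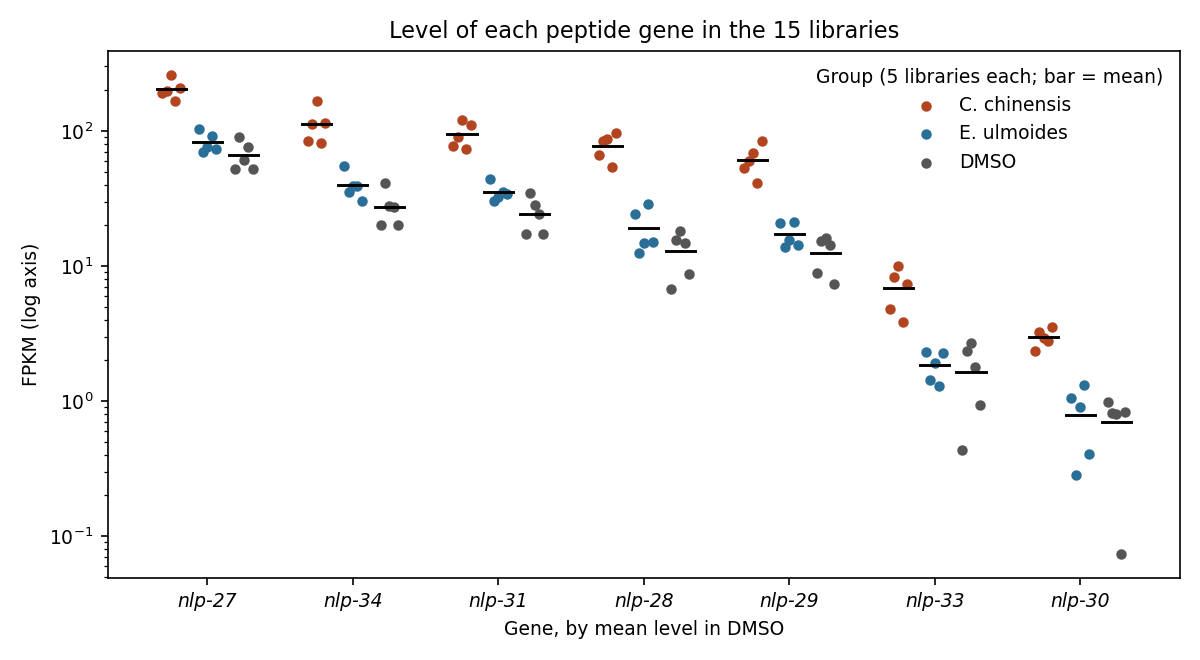
FPKM of each peptide gene (log axis) in the 15 libraries, with C. chinensis, E. ulmoides and DMSO side by side for each gene; points are libraries and bars are means of 5. The C. chinensis points lie above all others in all 7 genes, and the lowest point is the DMSO library with 0.0739 FPKM of nlp-30.

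The order of the mean FPKM was the same in the 3 groups, from nlp-27 through nlp-34, nlp-31, nlp-28, nlp-29 and nlp-33 to nlp-30. The step from nlp-27 to nlp-34 exceeded the spread in each group, with means of 205 ± 34.9 and 112 ± 33.8 FPKM with C. chinensis, 82.8 ± 13.8 and 39.6 ± 9.30 FPKM with E. ulmoides, and 66.1 ± 16.3 and 27.4 ± 8.73 FPKM with DMSO (SD, n = 5 each). So did the step from nlp-29 (61.3 ± 16.5, 17.1 ± 3.68 and 12.4 ± 4.02 FPKM) to nlp-33 (6.83 ± 2.5, 1.84 ± 0.470 and 1.64 ± 0.946 FPKM), with the groups in the same sequence. The ranges of nlp-34 and nlp-31 overlapped in every group, as did those of nlp-28 and nlp-29. Within a library, nlp-28 was above nlp-29 in 5 of 5 C. chinensis, 3 of 5 E. ulmoides and 4 of 5 DMSO libraries.

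Against DMSO, the question was whether C. chinensis extract changed the expression of these defence genes in aged worms. A linear model over all 13743 genes with sufficient expression (limma, on log2(scaled FPKM + 0.5)) was used, in which a gene was called when its p, adjusted by Benjamini-Hochberg, was under 0.05 and its level differed by more than 1.5-fold. It called 7 of the 7 higher and 0 lower, beside 16% of all genes tested called higher and 4.32% called lower. Of the 7, nlp-30 passed the filter (1 FPKM in at least 5 libraries) only through its C. chinensis libraries. Its call and its place in these counts therefore lean on the group in which it was high. The largest rise was that of nlp-28, with a log2 fold change of 2.43 (SE 0.25, limma adjusted p = 6.15e-07), followed by nlp-29 with 2.10 (SE 0.20, adjusted p = 3.07e-07). The flanking genes nlp-34 and nlp-31 rose by 1.83 (SE 0.19, adjusted p = 7.79e-07) and 1.78 (SE 0.16, adjusted p = 2.4e-07) on the log2 scale. The distant gene nlp-33 rose by 1.68 (SE 0.29, adjusted p = 7.78e-05). The most and the least abundant members had the smallest values, 1.46 for nlp-27 (SE 0.13, adjusted p = 2.58e-07) and 1.45 for nlp-30 (SE 0.26, adjusted p = 0.000124). For nlp-30 and nlp-33, with levels near the added 0.5, that addition lowers the fitted fold change. The ratio of the mean deposited FPKM, which is not scaled, was 4.24 for nlp-30 and 4.18 for nlp-33, beside fitted folds of 2.73 and 3.21. The added 0.5 is not all of this gap, because the scaling enters it too. For nlp-27, far above 0.5, the ratio was 3.10 and the fitted fold 2.76.

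The median of the 7 log2 fold changes was 1.78, against a median of −0.11 over all genes tested, and nlp-28 had the 25th highest value of the 13743 genes. In all 7 genes every C. chinensis library exceeded every DMSO library, which held for 28.8% of all genes tested. When the 5 and 5 libraries were permuted in an exact two-sided test, each of the 7 reached p = 0.0079, the smallest such a design allows. Any gene with full separation of the 5 and 5 libraries gets this p, so the test adds nothing to that separation. All 7 stayed called when any 1 of the 10 libraries was left out, with the log2 fold change of nlp-28 between 2.23 and 2.57 and that of nlp-27 between 1.39 and 1.58.

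With E. ulmoides, the same model called 0 of the 7, beside 60 genes, or 0.437% of all tested, called higher and 0.0946% called lower. At an unadjusted p under 0.05, limma found 5 of the 7 higher, beside 10.3% of all genes, and limma-voom on the recovered fragments called 1 higher, beside 0.495%. All 7 values were positive, and 3 of them exceeded 1.5-fold without passing the adjusted p. The log2 fold change was 0.66 for nlp-31 (95% interval 0.32 to 1.00, limma adjusted p = 0.0562), 0.66 for nlp-28 (0.14 to 1.18, adjusted p = 0.184) and 0.64 for nlp-34 (0.24 to 1.04, adjusted p = 0.103). It was 0.58 for nlp-29 (0.16 to 0.99, adjusted p = 0.154) and 0.44 for nlp-27 (0.15 to 0.72, adjusted p = 0.118). For the weakly expressed nlp-33 and nlp-30 the values were 0.33 (−0.28 to 0.93, adjusted p = 0.598) and 0.17 (−0.38 to 0.72, adjusted p = 0.785). Single-gene exact two-sided permutation tests gave p = 0.016 for nlp-31, 0.024 for nlp-34, 0.04 for nlp-29, 0.063 for nlp-27, 0.12 for nlp-28, 0.4 for nlp-33 and 0.66 for nlp-30, without adjustment for the number of genes. On the log2 scale, 32 of the 35 values of the 7 genes in the 5 E. ulmoides libraries lay above the DMSO mean of the gene, against 35 of 35 with C. chinensis. Over all genes tested 54.7% of such values lay above the DMSO mean with E. ulmoides and 44.7% with C. chinensis. Both counts use the same 5 DMSO libraries, and the 7 values of a library are not independent. In none of the 7 was every E. ulmoides library above every DMSO library, which held for 1.13% of all genes tested.

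The call for nlp-31 depended on the setting. Its adjusted p with E. ulmoides ranged from 0.023 to 0.276 over the other settings with no library of either group left out, and it was 0.0416 with median-of-ratios scaling. Without DMSO replicate 2, the control library with the highest nlp-31 and nlp-34, 2 of the 7 genes were called: nlp-31 at 0.78 (adjusted p = 0.0119) and nlp-34 at 0.78 (adjusted p = 0.0314). The 60 genes called with E. ulmoides became 17 to 132 when 1 library was left out, a shift of more than 1.5 times for every library but E. ulmoides replicate 3. For nlp-30, leaving out DMSO replicate 4, with its 2 fragments, turned the value with E. ulmoides to −0.08 (adjusted p = 0.889).

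The extracts were given at the same dose and time, so they could also be compared directly. All 7 genes were called higher with C. chinensis than with E. ulmoides, beside 14.6% of all genes tested called higher and 7.53% called lower. Here, too, nlp-30 had passed the filter only through its C. chinensis libraries. The log2 difference was 1.77 for nlp-28 (SE 0.25, limma adjusted p = 9.38e-06), 1.52 for nlp-29 (SE 0.20, adjusted p = 4.97e-06), 1.36 for nlp-33 (SE 0.29, adjusted p = 0.000485) and 1.28 for nlp-30 (SE 0.26, adjusted p = 0.000333). It was 1.19 for nlp-34 (SE 0.19, adjusted p = 3.45e-05), 1.12 for nlp-31 (SE 0.16, adjusted p = 1.33e-05) and 1.03 for nlp-27 (SE 0.13, adjusted p = 5.24e-06). The median was 1.28, against −0.02 over all genes. Every C. chinensis library exceeded every E. ulmoides library in all 7, as in 35.1% of all genes tested.

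**Figure D3:**
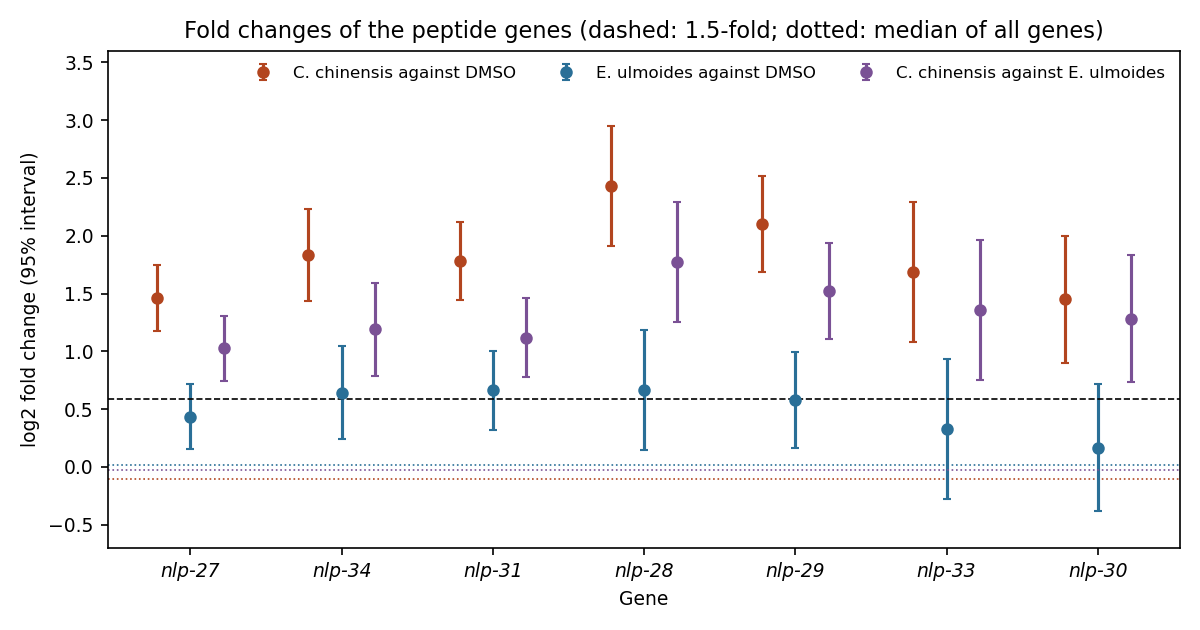
Fitted log2 fold change of each peptide gene on log2(scaled FPKM + 0.5), with 95% intervals, for C. chinensis against DMSO, E. ulmoides against DMSO and C. chinensis against E. ulmoides; the dashed line marks 1.5-fold and dotted lines the median of all 13743 genes. The C. chinensis values run from 1.45 (nlp-30) to 2.43 (nlp-28), and the E. ulmoides values from 0.17 (nlp-30) to 0.66 (nlp-31 and nlp-28).

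The proportions of the peptides within a library were also set side by side. Of the summed FPKM of the 7 genes, nlp-27 made up 36.9% ± 2.69 with C. chinensis, 42.2% ± 0.883 with E. ulmoides and 45.9% ± 4.11 with DMSO, whereas nlp-28 made up 13.9% ± 1.4, 9.49% ± 2.18 and 8.68% ± 2.08 in the same groups (SD, n = 5 each). Within a library, the ratio of nlp-27 to nlp-28 was 2.17 to 3.08 with C. chinensis, 3.19 to 5.57 with E. ulmoides and 3.31 to 7.80 with DMSO. The ratio of nlp-28 to nlp-31 was 0.723 to 0.933 with C. chinensis, 0.411 to 0.811 with E. ulmoides and 0.388 to 0.645 with DMSO. By contrast, the ratio of nlp-31 to nlp-34 was 0.731 to 0.967 with C. chinensis, 0.803 to 1.14 with E. ulmoides and 0.842 to 1.02 with DMSO. These ratios were examined after the levels were seen, for the 10 pairs of the 5 members with a mean of at least 5 FPKM. In exact two-sided permutation tests between C. chinensis and DMSO, both the nlp-27 to nlp-28 and the nlp-28 to nlp-31 ratio gave p = 0.0079, and the nlp-31 to nlp-34 ratio gave p = 0.6. Of the 30 tests over all pairs and comparisons, 0 stayed under 0.05 after Benjamini-Hochberg adjustment, and the lowest adjusted p was 0.06.

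**Figure D4:**
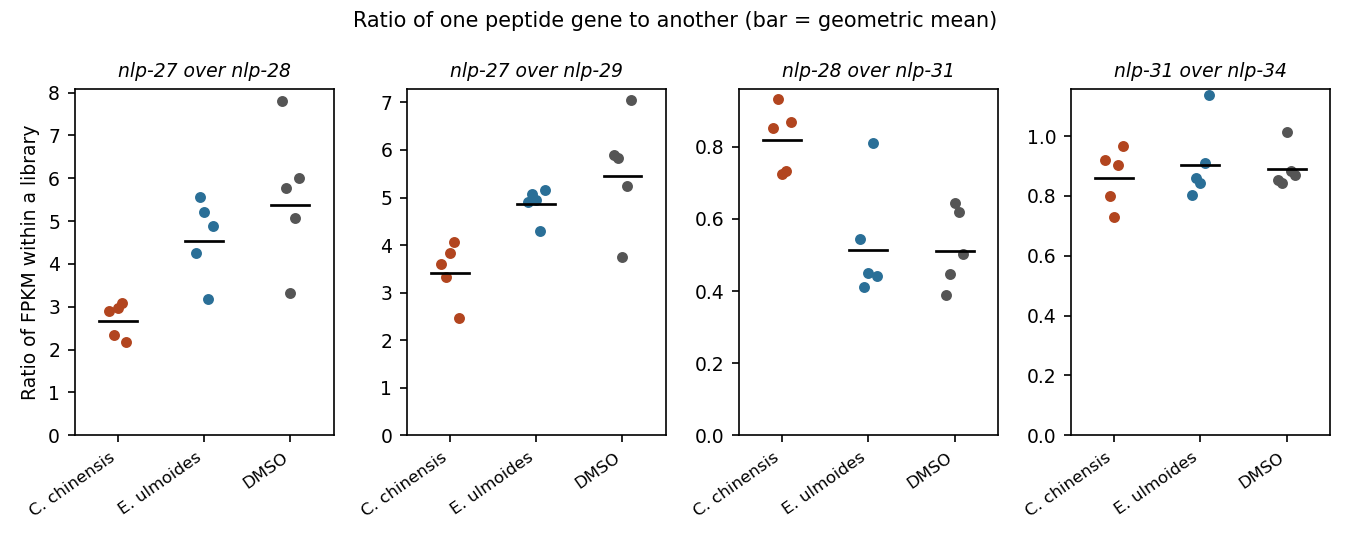
Ratio of the FPKM of one peptide gene to that of another within each library, for C. chinensis, E. ulmoides and DMSO; points are libraries and bars geometric means. The nlp-27 to nlp-28 ratio is 2.17 to 3.08 with C. chinensis, below all DMSO libraries (3.31 to 7.80).

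In deposited FPKM, without scaling, libraries of a group differed for several members at a time. Among the C. chinensis libraries, replicate 4 was the lowest for 6 of the 7 genes, all but nlp-30, and the highest was replicate 3 for 4 genes and replicate 5 for 3. Among the E. ulmoides libraries, replicate 2 was the lowest for 5 genes, and replicates 1 and 4 were the highest for 4 and 3. Among the DMSO libraries, replicates 2 and 3 were the highest for 3 genes each, and replicates 1 and 5 the lowest for 3 genes each. Some of these ranks changed with the scaling. Scaled nlp-27 was lowest among the DMSO libraries in replicate 1, with 53.6 beside 56.1 in replicate 5. Scaled nlp-31 was lowest among the C. chinensis libraries in replicate 1, with 67.9 beside 71.1 in replicate 4.

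Genes bordering the cluster were also examined. Within 20000 bp on either side, 3 genes outside the group were expressed enough to be tested, and all were called with C. chinensis, named here after their values were seen. The cytochrome P450 genes cyp-34A9 and cyp-34A8 had log2 fold changes of 2.36 (adjusted p = 3.63e-07) and 0.68 (adjusted p = 2.74e-05) with C. chinensis. With E. ulmoides none of the 3 was called, and cyp-34A9 had 0.96 (adjusted p = 0.0521). The pseudogene K09D9.12, on the far side of nlp-27, fell by 0.74 on the log2 scale (adjusted p = 5.04e-05). The chemoreceptor genes str-82 and str-83, which lie between the P450 genes and nlp-34, were almost silent, with means of 0.0255 and 0 FPKM with C. chinensis and 0.0054 and 0.00828 FPKM with DMSO.

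Over the 15 libraries, the genes outside the group whose pattern was most like the mean of the 7 were C27B7.9, abf-2 (a gene for an antibacterial-factor-related peptide), fip-5 (a fungus-induced protein gene), ttr-24 and ttr-16 (transthyretin-related genes). Their root mean square difference from that mean, on the log2 scale around each gene's own mean, was 0.152, 0.156, 0.158, 0.159 and 0.160, out of 13736 genes compared. Of the members themselves, nlp-31 was nearest to the mean with 0.124 and nlp-30 farthest with 0.455. With C. chinensis, C27B7.9 had a log2 fold change of 1.99 and abf-2 of 1.94.

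Other antimicrobial peptide genes of the epidermis were set beside the group. Of 4 further nlp genes of the same kind, nlp-24 alone was tested and rose with C. chinensis, by 0.98 on the log2 scale (SE 0.23, limma adjusted p = 0.00144), with a mean of 2.88 ± 0.774 FPKM against 1.1 ± 0.574 FPKM with DMSO. The others, nlp-25, nlp-26 and nlp-32, stayed under the filter, and nlp-26 averaged 1.94 ± 1.01 FPKM with C. chinensis, 0.809 ± 0.129 FPKM with E. ulmoides and 0.241 ± 0.189 FPKM with DMSO (SD, n = 5 each). Of the 11 caenacin genes, peptide genes related to this group, 9 were tested and 9 rose with C. chinensis, with a median log2 fold change of 1.90. Over all genes tested, 16% were called higher with C. chinensis and 0.437% with E. ulmoides. The largest value was 2.66 for cnc-6 (adjusted p = 2.15e-07), and cnc-4 had 2.18 (adjusted p = 1.36e-07). With E. ulmoides 2 of the 9 rose, cnc-6 by 1.46 (adjusted p = 0.00987) and cnc-4 by 0.98 (adjusted p = 0.0182) on the log2 scale, and the median was 0.45. The call of cnc-4 with E. ulmoides was lost without scaling and with quantile normalization.

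The genes that carry the fungal and wound signal to these peptides were examined next. Of 12 upstream signalling genes 3 rose with C. chinensis, 0 fell, and the median was 0.35. Over all genes tested, 16% were called higher and 4.32% lower. The G protein alpha subunit gene gpa-12 rose by 1.14 (SE 0.13, adjusted p = 1.57e-06), dcar-1, the receptor, by 0.84 (SE 0.09, adjusted p = 7.22e-07) and tpa-1, the protein kinase C gene, by 0.60 (SE 0.09, adjusted p = 1.6e-05) on the log2 scale. The call of tpa-1 was lost under 1 of the other scalings. The phospholipase C genes egl-8 and plc-3, with 0.42 each (adjusted p = 8.39e-05 and 0.000472), and the scaffold gene rack-1, with −0.34 (adjusted p = 0.0019), did not reach the fold limit. The p38 cascade itself was not called: the values were 0.01 for the p38 kinase gene pmk-1, 0.14 for its activator sek-1, 0.35 for nsy-1 and −0.03 for the adaptor gene tir-1, of which pmk-1 and tir-1 changed sign with the scaling. Here nsy-1 had a limma adjusted p of 0.000741 and missed only the fold limit. So did cebp-1, also in the upstream list, with 0.35 (adjusted p = 3.17e-05). Of the transcriptional regulators, all 3 rose: elt-3 by 0.97 (SE 0.12, adjusted p = 4.21e-06), sta-2 by 0.85 (SE 0.10, adjusted p = 2.23e-06) and snf-12 by 0.68 (SE 0.12, adjusted p = 0.000126), the last lost under 1 of the other scalings. With E. ulmoides limma called 0 of these 15 genes and voom 0, and 3 had an unadjusted p under 0.05.

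Regulators of other inputs to the peptide genes gave the following counts with C. chinensis, beside 16% of all genes tested called higher. Of osm-8, its genetic partner ptr-23 and the kinase and phosphatase genes dapk-1 and vhp-1, whose loss is known to alter nlp-29 expression or p38 signalling, 3 were tested and 1 rose, ptr-23 by 1.08 (SE 0.12, adjusted p = 1.47e-06). The values for dapk-1, 0.42 (adjusted p = 0.000159), and vhp-1, 0.34 (adjusted p = 8.46e-05), did not reach the fold limit. In the list of osmotic response genes, 4 of 7 tested rose: gpdh-1, an enzyme gene of glycerol synthesis, by 1.31 (adjusted p = 3.56e-05), ptr-23 again, osm-11 by 1.00 (adjusted p = 6.91e-07) and the myo-inositol transporter gene hmit-1.1 by 0.85 (adjusted p = 0.00393). Of the 6 furrow collagens, cuticle proteins whose loss switches on nlp-29, only dpy-9 and dpy-10 were expressed enough to be tested. Limma and voom called 0 of them and 1 had an unadjusted p under 0.05, with values of −0.16 for dpy-9 and 0.42 for dpy-10. Of the 8 genes of the DBL-1 TGF-beta pathway, known to drive the caenacin gene cnc-2, 2 rose: sma-10 by 0.86 (adjusted p = 9.95e-07) and the receptor gene sma-6 by 0.63 (adjusted p = 6.25e-06), of which sma-6 was lost with quantile normalization. The log2 fold changes of all 8 ran from 0.27 to 0.86. Of the 19 genes tested in these lists, limma and voom called 0 with E. ulmoides, and 3 had an unadjusted p under 0.05.

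**Figure D5:**
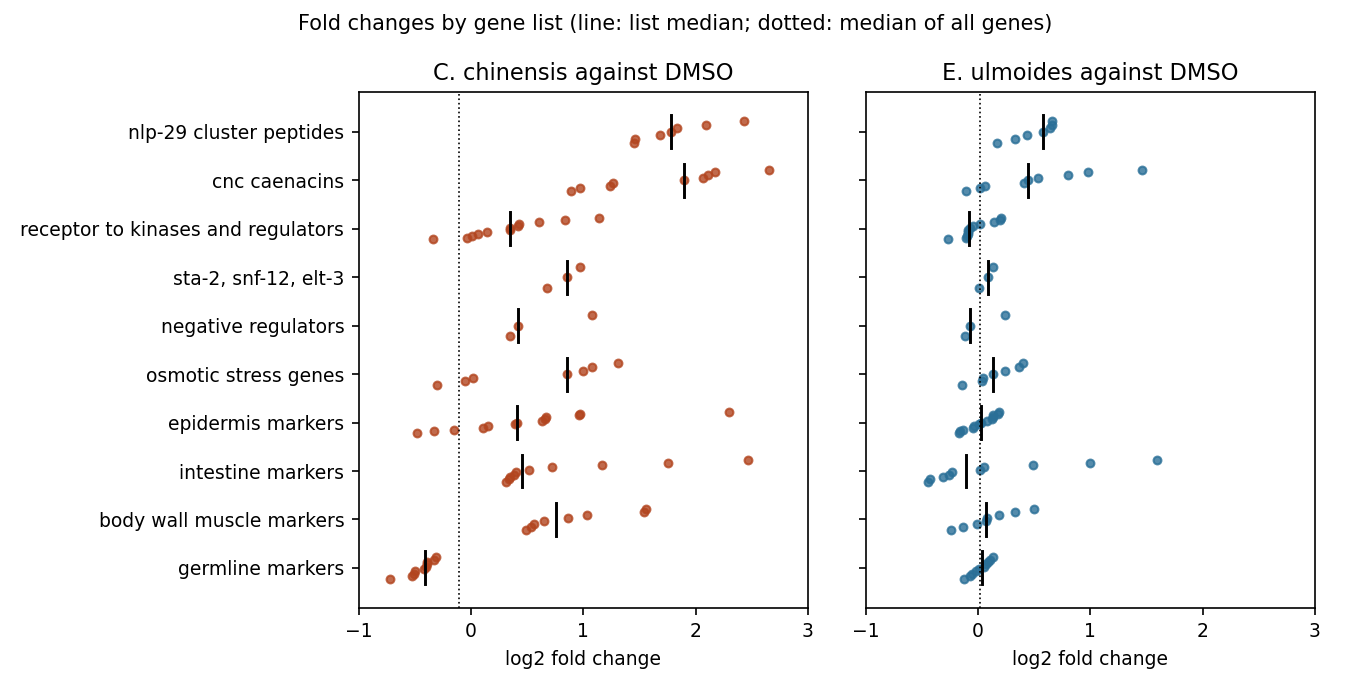
Log2 fold change of every tested gene in the lists labelled at the left (points), with the median of each list (line), for the comparisons shown above each panel. The dotted line is the median of all genes. The further nlp genes, furrow collagens, DBL-1 pathway genes, and pharyngeal and neuronal markers are not drawn. With C. chinensis the 7 members have a median of 1.78 and the 9 caenacin genes of 1.90, while the 12 upstream signalling genes have a median of 0.35.

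Some markers of tissues moved with C. chinensis as well, beside 16% of all genes tested called higher and 4.32% called lower. Of 19 epidermal marker genes 13 were tested, of which 6 rose with C. chinensis and 0 fell, among them the adult cuticle collagen gene col-19 by 2.30 (adjusted p = 8.19e-05), elt-3 as above, semo-1 by 0.96 (adjusted p = 8.31e-06) and the tetraspanin gene tsp-15 by 0.63 (adjusted p = 9.2e-05). Under quantile normalization 3 rose. The defining epidermal factor gene lin-26 had a negative log2 fold change, −0.48 (adjusted p = 0.000171), which did not reach the fold limit. The factor genes nhr-23 and elt-1 were negative too, with −0.33 (adjusted p = 0.00361) and −0.15 (adjusted p = 0.225), and elt-1 changed sign with the scaling. Between the extracts lin-26 was called lower in C. chinensis-treated worms (−0.61, adjusted p = 1.54e-05), in 3 of 5 scalings. Its means were 32.6 ± 3.18 FPKM with C. chinensis, 41.2 ± 3.10 FPKM with E. ulmoides and 40.1 ± 2.29 FPKM with DMSO (SD, n = 5 each). Summed over the 19 markers, the level was 159.7 to 210.7 FPKM with C. chinensis, 121.1 to 136.2 FPKM with E. ulmoides and 129.9 to 156 FPKM with DMSO, and no marker was at 0 in all libraries. This sum and those below are of deposited FPKM, without scaling. The scaling divided C. chinensis libraries by 1.03 to 1.19 and DMSO libraries by 0.929 to 1.01, which lowers C. chinensis relative to DMSO. Whether the epidermal sums stay apart after scaling was not tested. The sum over 8 body wall muscle markers was 266.6 to 390.4 FPKM with C. chinensis, 156.2 to 187.1 with E. ulmoides and 152.3 to 189 with DMSO, and 5 of these 8 rose with C. chinensis. For 10 intestinal markers, of which 4 rose, it was 329.2 to 577.4, 191.8 to 248.3 and 143.6 to 231.8 FPKM, and for 10 germline markers, of which 0 rose and 1 fell, 1563 to 2022, 1836 to 2179 and 2143 to 2237 FPKM, in the same sequence of groups. Much of the intestinal sum came from the protease genes asp-1 and cpr-1. Their means were 172.5 and 113.3 FPKM with C. chinensis, 81.4 and 48.3 with E. ulmoides, and 45.9 and 22.4 with DMSO. With E. ulmoides the 10 intestinal markers had a median log2 fold change of −0.11. Of 9 neuronal markers tested 1 rose, and of 5 pharyngeal ones limma and voom called 0, with 4 at an unadjusted p under 0.05. These counts moved with the scaling: without scaling 8 muscle, 4 neuronal and 2 pharyngeal markers rose and 0 germline markers fell, and with quantile normalization 2 neuronal markers rose and 0 germline markers fell. With C. chinensis the epidermal markers tested had a median log2 fold change of 0.41, against 1.78 for the 7 peptide genes, and the part of these shifts in the peptide values was not tested.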

How the data were processed

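The authors aligned paired-end reads to WBcel235 with HISAT2 (version not given) and deposited FPKM in one table, with 1 column for each of the 15 libraries. The counting program and its annotation are not given in the sources used here. From the FPKM of 21-nucleotide piRNA genes the fragment totals were recovered. With these, 10628 of the 26686 genes above 0 came out as whole fragments (within 0.0001) at their annotated exon length. For the others, 5 members included, the smallest length that made all values whole was used, so wholeness is no check there.

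FPKM were divided by column sums and scaled by TMM with no weights (30% of M and 5% of A trimmed). The value log2(scaled FPKM + 0.5) was fitted with limma 3.58.1 in R 4.3.3 (lmFit, eBayes with trend) over all libraries, for genes that reached 1 FPKM in 5 or more libraries. The authors used edgeR on counts; the deposited unit is FPKM, so limma was the main test and limma-voom on recovered fragments an alternative. A gene was called when its p, adjusted over all 13743 genes kept, was under 0.05 and it differed by more than 1.5-fold. Single members were compared by exact permutation tests.

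Every member is named, and from each list up to 4 called genes with the smallest p (up to 2 where none is called), with some further genes given as values. The members, the lists and this rule were chosen with earlier results of these data known. Alternatives changed the scaling, pseudocount, filter, libraries, block, test and fold limit.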

Additional observations from a re-analysis of the deposited data

Results flagged for a closer look

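The level of nlp-30 in DMSO replicate 4, 0.0739 FPKM, was far below the other 4 DMSO libraries (0.797 to 0.977 FPKM). Its gap to the nearest library was 0.842 of the range of the group, above Dixon's 95% critical value of 0.71 for 5 samples. It rests on 2 fragments. Of 21 groups checked (7 genes in 3 groups) 1 stood out in this way, and chance flags about 1 in 20.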

How the results depend on the processing

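The 7 peptide genes stayed called higher with C. chinensis than with DMSO, and than with E. ulmoides, in every setting that tested them (5 of 5 where a mean of 5 FPKM was required), and in 7 of 7 with each library left out. Over 23 settings, all 159 single-gene values kept their direction and call in both comparisons, and 150 of 159 did with E. ulmoides against DMSO, where 8 became calls and 1 changed sign, nlp-30 without DMSO replicate 4 (log2 fold change −0.084, and −0.084 to 0.33 over its libraries left out). Members called with E. ulmoides numbered 1 with median-of-ratios scaling, 1 with a mean of at least 5 FPKM, 1 with only the 2 groups compared, 1 with voom on recovered fragments, 2 with TMM over the genes kept and FPKM not divided by column sums (chosen after seeing the data), and 0 to 2 with 1 library left out. Using each library in turn as the scaling reference, also chosen later, gave 7 members with C. chinensis, and 0 to 2 members and 53 to 176 genes with E. ulmoides.

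Genes called higher with E. ulmoides than with DMSO were 60, and 20 without scaling, 35 with quantile normalization, 3 without a filter, 97 with only the 2 groups compared, 96 without a fold limit, 153 with TMM over the genes kept, and 17 to 132 with 1 library left out. The replicate block by replicate number gave 23 such genes and the block by code number 1; same-numbered libraries did not deviate together (0 of 15 pairs correlated above 0.1), and the block changed no call of a member. With C. chinensis against DMSO, 1168 genes were called higher with a mean of at least 5 FPKM, 4033 without a fold limit, and 1927 to 2305 with 1 library left out. Between the extracts these were 3827 without scaling, 1284 with quantile normalization, 1063 with a mean of at least 5 FPKM, 4230 without a fold limit and 1658 to 2273 with 1 library left out. The cause of these shifts was not tested, beyond fewer genes or libraries entering some fits.

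Without scaling, the median of all genes moved to 0.06 with C. chinensis, −0.07 with E. ulmoides and 0.23 between the extracts, and the members' median was 1.96 with C. chinensis and 0.48 with E. ulmoides. Of all calls, 78.8% were higher with C. chinensis, against 96.2% without scaling and 66.7% with quantile normalization. The share for E. ulmoides was 82.2%, against 44.4% without scaling, and that between the extracts was 65.9%, against 97.9%. Depth limits nlp-30 and nlp-33, which rest on few fragments.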
